A study of Saccharomyces cerevisiae with 24 samples.

Results

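The genes described here make vitamins B6 and B1 in the yeast Saccharomyces cerevisiae: SNZ1, SNZ2 and SNZ3, SNO1, SNO2 and SNO3, and THI5, THI11, THI12 and THI13. They were selected on fold changes of these libraries at 30 °C, where SNZ1 and SNO1 were much higher in strains with a mutant Npl3. Npl3 is an RNA-binding protein. The paralogues of SNZ1 and SNO1, and the THI5 family, were taken with them. The genes described here are 10 of 7127 features in the count table. All 10 passed the filter on low counts, as did 6518 features in all. Every value that sets a mutant against NPL3 at 30 °C is therefore a description and carries no test.

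The strains are W303, MATa, npl3-shuffle, and all carry can1-100, GAL+ the marker alleles ade2-1, trp1-1, ura3-1 and his3-11,15, and a leu2 marker allele. The Npl3 protein came from a pRS315 plasmid that held npl3-F162Y, npl3-P196D-A197D, npl3-F245I or wild-type NPL3, and the submitters name the changed parts RRM1, the linker and RRM2. Cultures in YPD, a rich medium, were taken in mid-log phase after 1 hour at 37 °C, or from 30 °C without a shift. There were 3 libraries for each strain and temperature, 8 groups and 24 libraries in all. The labels number the replicates without naming separate cultures. The p-values set group differences against the spread of these samples, and that may be technical spread.

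The libraries held 15.8 to 34.7 M (mega) assigned counts, and the median library 24.9 M. Libraries of a group correlated with Pearson's r of 0.9926 or more over genes (not independent of one another). The NPL3 transcript was present in every library, and the a-cell gene STE2 was far above the alpha-cell gene STE3, the pattern of MATa cells. The 4 libraries of replicate 2 at 37 °C bear label numbers that begin unlike the rest (the other number series), and calls that were lost without them are named below.

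Snz and Sno proteins form one enzyme. Sno, the glutaminase subunit, frees ammonia from glutamine, and Snz, the synthase subunit, joins it to sugar phosphates to give pyridoxal 5'-phosphate, the active form of vitamin B6. The Thi5 family uses pyridoxal 5'-phosphate and histidine to build the pyrimidine part of thiamine, which is vitamin B1. In yeast, SNZ1 and SNO1 are known to rise when growth stops, and the SNZ2, SNZ3, SNO2, SNO3 and THI5-family genes when thiamine is scarce.

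SNO1 (YMR095C, XIII:457285-457959, minus strand) and SNZ1 (YMR096W, XIII:458408-459301, plus strand) stand back to back in build R64, with 448 bases between their start codons. SNO2 (YNL334C, XIV:12208-12876), SNZ2 (YNL333W, XIV:13267-14163) and THI12 (YNL332W, XIV:14832-15854) form a cluster near a chromosome end. SNO3 (YFL060C, VI:10301-10969), SNZ3 (YFL059W, VI:11363-12259) and THI5 (YFL058W, VI:12929-13951) form its copy. THI11 (YJR156C, X:728574-729596) and THI13 (YDL244W, IV:16204-17226) have no SNZ or SNO gene beside them. These are the coordinates of the annotated coding regions.

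The DNA upstream of SNZ1 and SNO1 is shown because letters found there are absent from the same window of the 8 other members. Each window holds the 200 bases from 250 to 51 before the start codon, read 5' to 3' on the gene's strand, from the RefSeq copy of R64. Capitals mark TGACTC, the core letters bound by Gcn4, the activator of amino acid synthesis genes, or its reverse complement GAGTCA. The SNZ1 window is XIII:458158-458357, plus strand, and the SNO1 window is XIII:458010-458209, minus strand.
SNZ1: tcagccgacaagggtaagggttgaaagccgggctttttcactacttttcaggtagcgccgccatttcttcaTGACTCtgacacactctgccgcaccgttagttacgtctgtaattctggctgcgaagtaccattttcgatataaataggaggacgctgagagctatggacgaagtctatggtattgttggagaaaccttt
SNO1: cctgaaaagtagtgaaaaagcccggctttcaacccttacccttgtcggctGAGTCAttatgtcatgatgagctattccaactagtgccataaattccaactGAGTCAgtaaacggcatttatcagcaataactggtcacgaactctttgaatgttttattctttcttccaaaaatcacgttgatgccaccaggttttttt
SNZ1 held 1 match, at -179 to -174 from its start codon, and SNO1 held 2, at -200 to -195 and -149 to -144. Both windows lie in the 448 bases between the start codons, and they overlap. The SNO1 match at -200 to -195 is cut by the edge of the SNZ1 window, so the count per gene depends on where the windows end. Searched on both strands, 316 of 6007 protein-coding genes had a match in this window (5.26%) and 18 had 2 or more (0.3%). A match is a string of letters and not a measured binding site.

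The upstream DNA of the SNZ2, SNZ3 and THI5-family genes is shown because the copies are almost the same there. Capitals mark the positions at which the copies differ. The windows are XIV:13017-13216 for SNZ2, VI:11113-11312 for SNZ3, VI:12679-12878 for THI5, XIV:14582-14781 for THI12 and IV:15954-16153 for THI13, all on the plus strand, and X:729647-729846 on the minus strand for THI11.
SNZ2: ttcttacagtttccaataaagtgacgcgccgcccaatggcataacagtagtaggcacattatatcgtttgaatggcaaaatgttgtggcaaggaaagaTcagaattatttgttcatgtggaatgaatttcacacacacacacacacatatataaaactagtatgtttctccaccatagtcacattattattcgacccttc
SNZ3: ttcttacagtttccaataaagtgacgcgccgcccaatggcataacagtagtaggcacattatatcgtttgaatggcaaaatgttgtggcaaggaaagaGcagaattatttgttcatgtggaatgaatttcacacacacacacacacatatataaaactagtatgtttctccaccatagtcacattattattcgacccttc
THI5: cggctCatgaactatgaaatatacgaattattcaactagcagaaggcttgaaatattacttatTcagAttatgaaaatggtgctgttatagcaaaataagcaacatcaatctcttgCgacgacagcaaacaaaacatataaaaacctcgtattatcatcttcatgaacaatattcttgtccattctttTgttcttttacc
THI12: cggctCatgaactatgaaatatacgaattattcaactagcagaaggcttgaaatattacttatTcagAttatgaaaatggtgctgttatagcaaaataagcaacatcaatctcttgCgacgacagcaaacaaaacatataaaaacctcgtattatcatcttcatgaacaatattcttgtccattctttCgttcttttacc
THI11: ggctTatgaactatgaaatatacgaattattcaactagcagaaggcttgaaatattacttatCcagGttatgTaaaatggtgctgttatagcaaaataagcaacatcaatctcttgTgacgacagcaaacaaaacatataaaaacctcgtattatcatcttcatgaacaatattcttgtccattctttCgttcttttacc
THI13: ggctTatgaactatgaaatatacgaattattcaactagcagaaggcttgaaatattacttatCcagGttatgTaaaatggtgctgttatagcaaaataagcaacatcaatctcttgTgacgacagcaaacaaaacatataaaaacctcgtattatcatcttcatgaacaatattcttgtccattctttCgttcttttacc
SNZ2 and SNZ3 differed at 1 aligned position of 200, as did THI5 and THI12. The THI11 and THI13 windows were identical, and stood 5 positions away from THI12 and 6 away from THI5.

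The coding regions of the copies were as close. SNZ2 and SNZ3 differed at 6 of 897 bases, SNO2 and SNO3 at 2 of 669, and THI5 differed from THI12 at 7, from THI11 at 12 and from THI13 at 19 of 1023. SNZ1 was 70.65% identical to SNZ2, and SNO1 was 58.97% identical to SNO2. Of all stretches of 50 bases in the coding region, 100% occurred nowhere else in the genome for SNZ1 and for SNO1. The share was 22.9% for SNZ2 and for SNZ3, 13.5% for SNO2 and for SNO3, 15% for THI5, 21% for THI11, 29.4% for THI12 and 40% for THI13. The sources used here do not give how reads that match several copies were counted, so a single copy's count is uncertain and the copies' summed counts are given beside it. The summary row for reads without a unique alignment was 0 in every library. Such reads may have been removed before counting or given to a single copy. Reads removed before counting would be missing from the sums as well.

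Levels are CPM, the share of a library's TMM-scaled total count expressed per 1 M counts. SNZ1 at 37 °C had 208, 223 and 228 CPM in npl3-F162Y, 168, 160 and 149 in the npl3-P196D-A197D libraries, 148, 157 and 142 in npl3-F245I, and 35.1, 34.8 and 34.4 CPM in NPL3. SNZ1 at 30 °C had 507, 468 and 482 CPM in npl3-F162Y, 370, 390 and 362 in the npl3-P196D-A197D libraries, 395, 403 and 405 in npl3-F245I, and 40.0, 38.2 and 39.6 CPM in NPL3. Every mutant library was above every NPL3 library at both temperatures, and in each mutant all libraries at 37 °C lay below all those at 30 °C.

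SNO1, the partner across the shared upstream region, had 40.4, 38.3 and 39.4 CPM at 37 °C in npl3-F162Y, 32.7, 32.5 and 28.8 in the npl3-P196D-A197D libraries, 27.9, 28.8 and 25.8 in npl3-F245I, and 3.25, 4.63 and 4.06 CPM in NPL3. At 30 °C SNO1 had 76.2, 75.1 and 71.5 CPM in npl3-F162Y, 58.9, 63.0 and 58.0 in the npl3-P196D-A197D libraries, 65.4, 71.7 and 65.5 in npl3-F245I, and 4.16, 5.02 and 5.59 CPM in NPL3. As for SNZ1, mutant and NPL3 libraries did not overlap, and the mutants were lower at 37 °C than at 30 °C. Over the 24 libraries the log2 CPM of both genes correlated at r = 0.99, a description over samples that share their groups.

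**Figure D1:**
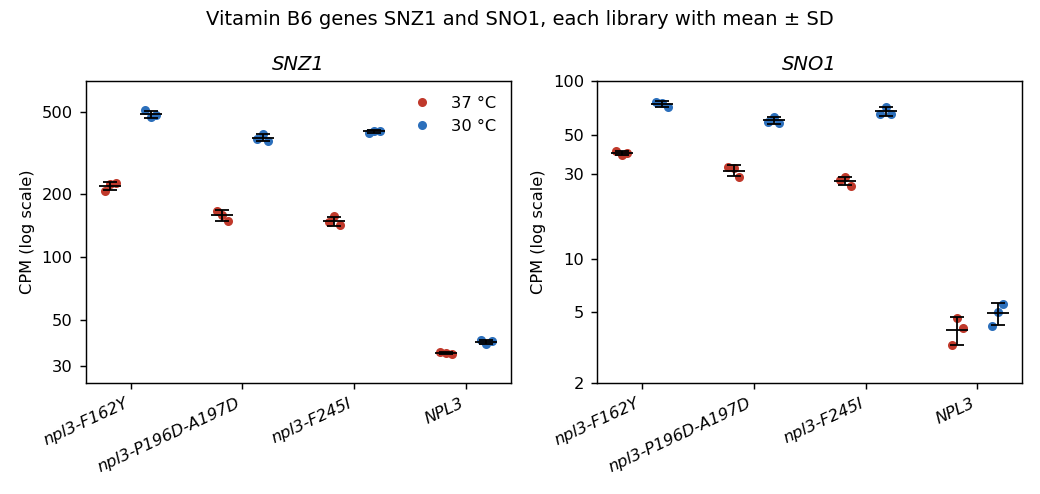
CPM of SNZ1 (left) and SNO1 (right) on log axes in each of the 24 libraries, by strain and temperature; points are libraries and bars the mean ± SD of 3. All mutant points lie above all NPL3 points, and mutant points at 37 °C lie under those at 30 °C, while the NPL3 points of both temperatures lie close together.

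The choice of these genes rested on fold changes at 30 °C, but was made with earlier results of these data known. It may therefore not be free of the 37 °C libraries. At 37 °C SNZ1 was 6.33-fold higher than in NPL3 in npl3-F162Y (log2 2.66 ± 0.05 SE, adjusted p = 9.16e-22), 4.57-fold higher in npl3-P196D-A197D (adjusted p = 6.99e-20) and 4.29-fold higher in npl3-F245I (adjusted p = 5.75e-20). These and all p-values below are from edgeR's quasi-likelihood test, adjusted by Benjamini-Hochberg over the 6518 genes tested and called under 0.05. SNO1 was 9.79-fold higher in npl3-F162Y (log2 3.29 ± 0.09 SE), 7.80-fold in npl3-P196D-A197D and 6.86-fold in npl3-F245I, each of which passed the test. At 30 °C, where the genes were chosen, the SNZ1 folds were 12.4, 9.51 and 10.2 in the same order of strains, and the SNO1 folds were 15.2, 12.3 and 13.8.

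At 37 °C 6 of the 10 genes passed in npl3-F162Y, all higher than in NPL3, where 58.8% of all genes tested passed. In npl3-P196D-A197D 5 passed, all higher, beside 43.7% of all genes. In npl3-F245I the 2 that passed were SNZ1 and SNO1, beside 50.6%. The median log2 change of the 10 genes was 0.28 in npl3-F162Y, 0.24 in npl3-P196D-A197D and 0.02 in npl3-F245I, and that of all genes tested lay between -0.0198 and -0.0145. At 30 °C 9, 8 and 8 of the 10 genes were past the threshold in npl3-F162Y, npl3-P196D-A197D and npl3-F245I, beside 68.4, 55.7 and 57.7% of all genes, and nothing is read from these counts.

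SNZ1 was lower after the shift to 37 °C in every strain, by a wider fold in the mutants. The 30 °C libraries of the mutants are among those on which SNZ1 and SNO1 were chosen. That choice favours a fall in the mutants, so nothing is concluded from the mutants' p-values. SNZ1 fell 2.21-fold in npl3-F162Y (adjusted p = 5.53e-16), 2.35-fold in npl3-P196D-A197D (2.03e-16) and 2.69-fold in npl3-F245I (8.18e-18), against 1.13-fold in NPL3 (0.00479), all by edgeR. SNO1 fell 1.89-fold in npl3-F162Y, 1.91-fold in npl3-P196D-A197D and 2.45-fold in npl3-F245I. In NPL3 the SNO1 log2 change was -0.28 (adjusted p = 0.0433 by edgeR). The call was lost without any 1 of 4 libraries, replicates 1 and 3 at 37 °C and replicates 2 and 3 at 30 °C (adjusted p 0.0814 to 0.249, edgeR). It was also lost with the groups compared alone (adjusted p = 0.169) and under the replicate block (0.117), both by edgeR.

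The difference between those responses is given as a description with no test, because it subtracts the 30 °C difference on which SNZ1 and SNO1 were chosen, and that choice favours its sign. For SNZ1 the mutant's log2 response minus that of NPL3 was -0.97 in npl3-F162Y, -1.06 in npl3-P196D-A197D and -1.25 in npl3-F245I. For SNO1 it was -0.63, -0.65 and -1.01. The same contrast is given with its test below for the other members. They were taken along with SNZ1 and SNO1, but with their values at 30 °C known. Those p-values are therefore not free of the choice, and nothing is concluded from them.

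The mutants were not equal. SNZ1 was highest in npl3-F162Y. At 37 °C it was 1.38-fold lower in npl3-P196D-A197D and 1.47-fold lower in npl3-F245I than in npl3-F162Y (adjusted p = 1.6e-07 and 1.35e-09, edgeR). At 30 °C it was 1.30-fold lower in npl3-P196D-A197D and 1.21-fold lower in npl3-F245I than in npl3-F162Y, and both passed. Between npl3-P196D-A197D and npl3-F245I its log2 difference was 0.09 at 37 °C (adjusted p = 0.133 by edgeR) and -0.10 at 30 °C (adjusted p = 0.105 by edgeR), neither of which passed.

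Per length, SNO1 changed its place among the 10 genes. The places are those of the deposited counts. Reads that match several copies may be missing for all members but SNZ1 and SNO1, so the order may not be that of the transcripts. In all 6 mutant groups SNO1 was second, behind SNZ1 and ahead of SNZ2 and SNZ3, at a mean of 40.7 to 58.3 CPM per kb of coding region at 37 °C and 88.8 to 110 CPM per kb at 30 °C. In NPL3 at 37 °C the order of CPM per kb was SNZ1 (38.9 ± 0.42), SNZ2 (22.5 ± 0.80), SNZ3 (20.4 ± 0.42), THI12 (19.8 ± 2.60), THI11 (15.5 ± 0.26), THI5 (12.1 ± 0.08), SNO2 (10.8 ± 1.30), SNO3 (10.7 ± 0.43), THI13 (10.0 ± 0.81) and SNO1 (5.90 ± 1.03, mean ± SD, n = 3). SNZ3 and THI12, and each pair of neighbours from THI5 to THI13, differed by less than the sum of their SDs. In NPL3 at 30 °C SNZ1 led at 43.9 ± 1.07 CPM per kb, SNO1 stood at 7.29 ± 1.06 and THI5 was last at 4.77 ± 0.38 (SD, n = 3). Among the members below SNZ1 in NPL3 at 30 °C, the single step wider than the sum of both SDs was that between SNZ3 and THI11.

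The ratio of SNO1 to SNZ1, both per length, was 0.238 ± 0.017 at 37 °C in npl3-F162Y, 0.261 ± 0.007 in npl3-P196D-A197D, 0.244 ± 0.005 in npl3-F245I and 0.152 ± 0.027 in NPL3 (SD, n = 3). At 30 °C the ratio was 0.203 ± 0.008 in npl3-F162Y, 0.212 ± 0.002 in npl3-P196D-A197D, 0.223 ± 0.011 in npl3-F245I and 0.166 ± 0.025 in NPL3. SNO1 thus stayed well under SNZ1 everywhere, with a higher ratio in the mutants, a description without a test.

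The near-identical synthase genes SNZ2 and SNZ3 moved far less. Their summed counts at 37 °C were 49.4, 52.6 and 48.4 CPM in npl3-F162Y, 51.4, 49.6 and 49.0 in the npl3-P196D-A197D libraries, 39.4, 39.8 and 38.1 in npl3-F245I, and 38.3, 39.2 and 37.9 CPM in NPL3. The npl3-F162Y and npl3-P196D-A197D libraries stood above all NPL3 libraries, and those of npl3-F245I overlapped with them. The sum was 1.30-fold higher in npl3-F162Y (adjusted p = 1.31e-07) and 1.30-fold in npl3-P196D-A197D (adjusted p = 4.46e-07), while the log2 difference in npl3-F245I was 0.03 (adjusted p = 0.664, all by edgeR). npl3-F245I itself was below both other mutants, with a log2 difference of -0.36 against npl3-F162Y (adjusted p = 9.63e-07), and npl3-P196D-A197D was higher than npl3-F245I by 0.35 (adjusted p = 1.25e-06, edgeR). SNZ2 and SNZ3 counted singly gave the same calls in these comparisons.

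At 30 °C the summed SNZ2 and SNZ3 counts were 54.9, 52.5 and 51.2 CPM in npl3-F162Y, 46.8, 49.3 and 48.3 in the npl3-P196D-A197D libraries, 45.3, 47.4 and 45.3 in npl3-F245I, and 38.9, 37.9 and 41.7 CPM in NPL3. There all 3 mutants were above NPL3, by 1.34-fold, 1.22-fold and 1.16-fold in that order. The shift to 37 °C lowered the sum in npl3-F245I, 1.17-fold (adjusted p = 9e-05, edgeR), and the change did not pass in the other strains, where the log2 values lay between -0.08 and 0.05. In npl3-F245I the response differed from that of NPL3 by -0.19 (adjusted p = 0.0275, edgeR), but this call was lost without any 1 of 5 libraries (adjusted p 0.0602 to 0.0788, edgeR). As the contrast holds the known 30 °C difference, nothing is concluded from it.

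The glutaminase copies SNO2 and SNO3, next to SNZ2 and SNZ3, did not follow their partners. Summed, they had 14.6, 14.1 and 13.4 CPM at 37 °C in npl3-F162Y, 15.1, 13.8 and 15.0 in the npl3-P196D-A197D libraries, 13.2, 12.4 and 15.0 in npl3-F245I, and 14.2, 13.9 and 15.1 CPM in NPL3. All groups overlapped at 37 °C, and the log2 differences from NPL3 were -0.03, 0.02 and -0.10 in npl3-F162Y, npl3-P196D-A197D and npl3-F245I, with adjusted p of 0.772, 0.877 and 0.395 by edgeR. At 30 °C the sum was 10.6, 11.0 and 10.0 CPM in npl3-F162Y, 12.3, 11.9 and 9.66 in the npl3-P196D-A197D libraries, 9.85, 10.8 and 12.1 in npl3-F245I, and 13.9, 14.8 and 11.6 CPM in NPL3. The log2 differences from NPL3 at 30 °C were -0.35, -0.25 and -0.29 in the same order, given without a test. Their sign was opposite to that of SNZ2 and SNZ3. Libraries of npl3-P196D-A197D and npl3-F245I overlapped with those of NPL3 at 30 °C.

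The shift raised the SNO2 and SNO3 sum 1.33-fold in npl3-F162Y (adjusted p = 0.000759) and 1.30-fold in npl3-P196D-A197D (adjusted p = 0.00256), by edgeR. In npl3-F245I it rose 1.23-fold (adjusted p = 0.00887 by edgeR), a call lost without replicate 3 at 37 °C or without replicate 1 at 30 °C (adjusted p = 0.0597 and 0.0578, edgeR). In NPL3 the log2 change was 0.10 (adjusted p = 0.347 by edgeR). None of the 3 interaction contrasts of the sum passed (adjusted p 0.104 to 0.302, edgeR), and a difference between the responses of the strains was not shown.

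**Figure D2:**
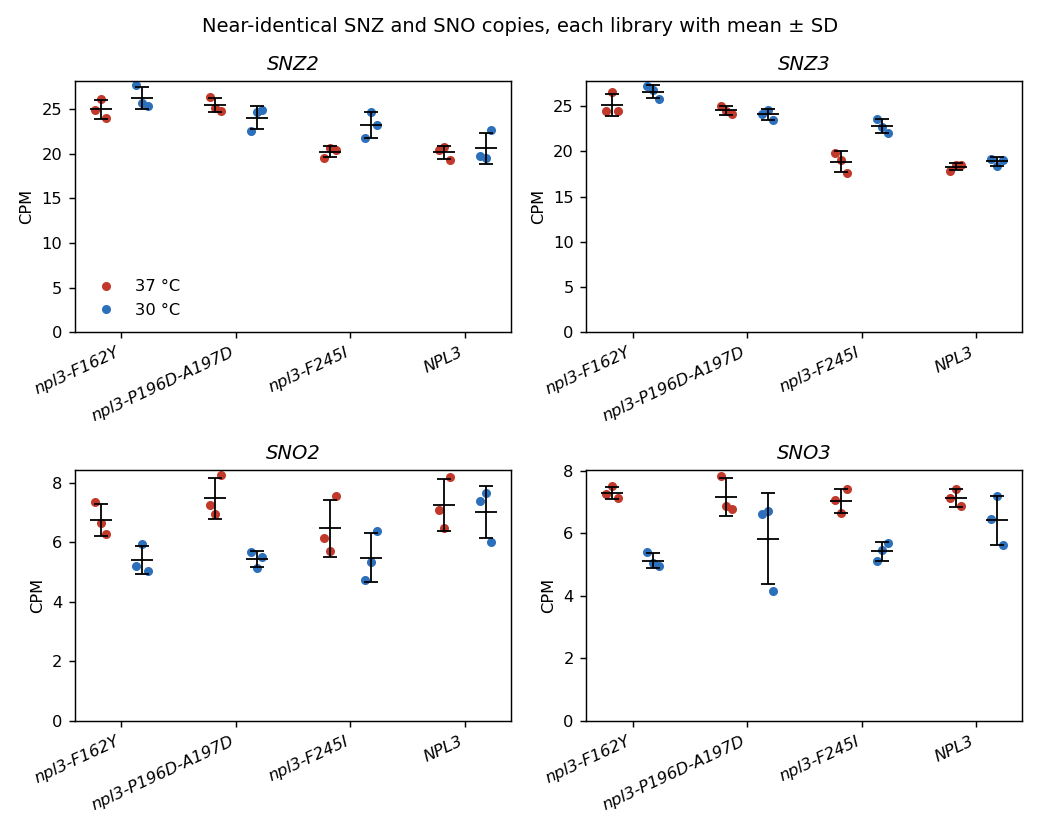
CPM of SNZ2, SNZ3, SNO2 and SNO3, each counted singly, in each of the 24 libraries, by strain and temperature; points are libraries and bars the mean ± SD of 3. SNZ2 and SNZ3 are highest in npl3-F162Y and npl3-P196D-A197D at both temperatures, and at 37 °C the npl3-F245I points are level with NPL3, while the SNO2 and SNO3 points of all strains overlap at 37 °C.

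The THI5 family, which makes the pyrimidine of thiamine, rose with temperature in every strain and also differed between strains. The summed counts at 37 °C were 68.7, 68.5 and 66.5 CPM in npl3-F162Y, 69.1, 66.4 and 65.9 in the npl3-P196D-A197D libraries, 58.9, 56.1 and 57.6 in npl3-F245I, and 55.9, 60.3 and 59.7 CPM in NPL3. At 30 °C they were 46.8, 46.2 and 45.2 CPM in npl3-F162Y, 42.0, 44.0 and 43.0 in the npl3-P196D-A197D libraries, 42.6, 42.7 and 42.1 in npl3-F245I, and 29.8, 33.8 and 31.2 CPM in NPL3. In each strain all libraries at 37 °C lay above all those at 30 °C.

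The shift raised the family 1.47-fold in npl3-F162Y, 1.56-fold in npl3-P196D-A197D and 1.35-fold in npl3-F245I, against 1.86-fold in NPL3 (adjusted p = 2.8e-14, edgeR), and each of these passed. The log2 response of the mutant minus that of NPL3 was -0.34 in npl3-F162Y (adjusted p = 0.000396), -0.25 in npl3-P196D-A197D (0.0111) and -0.46 in npl3-F245I (6.43e-06), all by edgeR. For npl3-P196D-A197D the call was lost when the 4 libraries of the other number series were left out (adjusted p = 0.0516, edgeR).

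Against NPL3 at 37 °C the family was 1.16-fold higher in npl3-F162Y (adjusted p = 0.000172) and 1.14-fold higher in npl3-P196D-A197D (adjusted p = 0.00074), with a log2 difference of -0.03 in npl3-F245I (adjusted p = 0.59, all by edgeR). At 30 °C the folds were 1.46, 1.36 and 1.35 in that order.

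Single copies of the family differed, within the limit that they share most of their sequence. THI5 at 37 °C had 16.1, 16.3 and 13.2 CPM in npl3-F162Y, 15.9, 15.0 and 13.8 in the npl3-P196D-A197D libraries, 12.9, 14.0 and 12.9 in npl3-F245I, and 12.3, 12.4 and 12.3 CPM in NPL3. THI5 at 30 °C had 11.0, 10.2 and 10.5 CPM in npl3-F162Y, 6.82, 9.05 and 6.79 in the npl3-P196D-A197D libraries, 10.3, 10.1 and 9.57 in npl3-F245I, and 4.80, 5.29 and 4.54 CPM in NPL3. The mutant libraries lay above those of NPL3 at both temperatures, by a wider margin at 30 °C, where the genes were chosen. At 37 °C the npl3-F245I difference did not pass (log2 0.11, adjusted p = 0.321, edgeR).

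With the shift THI5 rose 1.44-fold in npl3-F162Y, 1.95-fold in npl3-P196D-A197D and 1.33-fold in npl3-F245I, against 2.54-fold in NPL3 (adjusted p = 5.49e-11, edgeR), and each passed. The difference from the NPL3 response passed in npl3-F162Y (log2 -0.82, adjusted p = 0.000155) and npl3-F245I (log2 -0.93, adjusted p = 2.26e-05), and in npl3-P196D-A197D the value was -0.38 (adjusted p = 0.103, all by edgeR). At 37 °C THI5 was 1.23-fold higher than in NPL3 in npl3-F162Y (adjusted p = 0.00627) and 1.21-fold higher in npl3-P196D-A197D (adjusted p = 0.0173) by edgeR. With those of the other number series left out, neither call was kept (adjusted p = 0.0708 and 0.0682, edgeR), and without replicate 1 the npl3-P196D-A197D value was 0.0733.

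THI12, the neighbour of SNZ2, had 23.4, 23.4 and 22.6 CPM at 37 °C in npl3-F162Y, 21.8, 23.4 and 22.5 in the npl3-P196D-A197D libraries, 21.7, 20.0 and 21.1 in npl3-F245I, and 17.6, 22.9 and 20.3 CPM in NPL3. At 30 °C it had 13.9, 13.8 and 13.2 CPM in npl3-F162Y, 14.4, 11.6 and 12.8 in the npl3-P196D-A197D libraries, 11.9, 12.6 and 13.3 in npl3-F245I, and 7.63, 8.61 and 9.43 CPM in NPL3. At 37 °C each mutant overlapped with NPL3, and at 30 °C every mutant library was above NPL3. THI12 rose 1.69-fold, 1.77-fold and 1.65-fold with the shift in npl3-F162Y, npl3-P196D-A197D and npl3-F245I, against 2.38-fold in NPL3. Its log2 response minus that of NPL3 was -0.49, -0.43 and -0.53 in the same order of mutants (adjusted p = 0.0061, 0.0313 and 0.00259, edgeR). The npl3-P196D-A197D call was lost without any 1 of 7 libraries and without the other number series (adjusted p 0.0508 to 0.11, edgeR). These contrasts hold the 30 °C difference known at the choice of the genes, and nothing is concluded from them.

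At 37 °C THI13 ranged from 10.9 to 12.9 CPM in npl3-F162Y, from 11.2 to 12.4 in npl3-P196D-A197D, from 8.21 to 9.26 CPM in npl3-F245I and from 9.50 to 11.1 CPM in NPL3. Against NPL3 it was called in npl3-F162Y alone (log2 0.25, adjusted p = 0.031, edgeR), and that call was lost without any 1 of 4 libraries and without the other number series (adjusted p 0.0626 to 0.281). With the shift its log2 change in npl3-F245I was 0.12 (adjusted p = 0.319 by edgeR), against a rise of 1.70-fold in NPL3. That difference of responses passed (log2 -0.65, adjusted p = 0.0021, edgeR). THI11, whose upstream window is identical to that of THI13, lay between 15.9 and 18.4 CPM at 37 °C in npl3-F162Y, 16.8 and 18.9 in the npl3-P196D-A197D libraries, 13.8 and 15.0 in npl3-F245I, and 15.5 and 15.98 CPM in NPL3. THI11 rose in every strain, between 1.23-fold and 1.40-fold, and in no mutant did its response pass as different from that of NPL3 (adjusted p 0.6 to 0.829, edgeR).

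**Figure D3:**
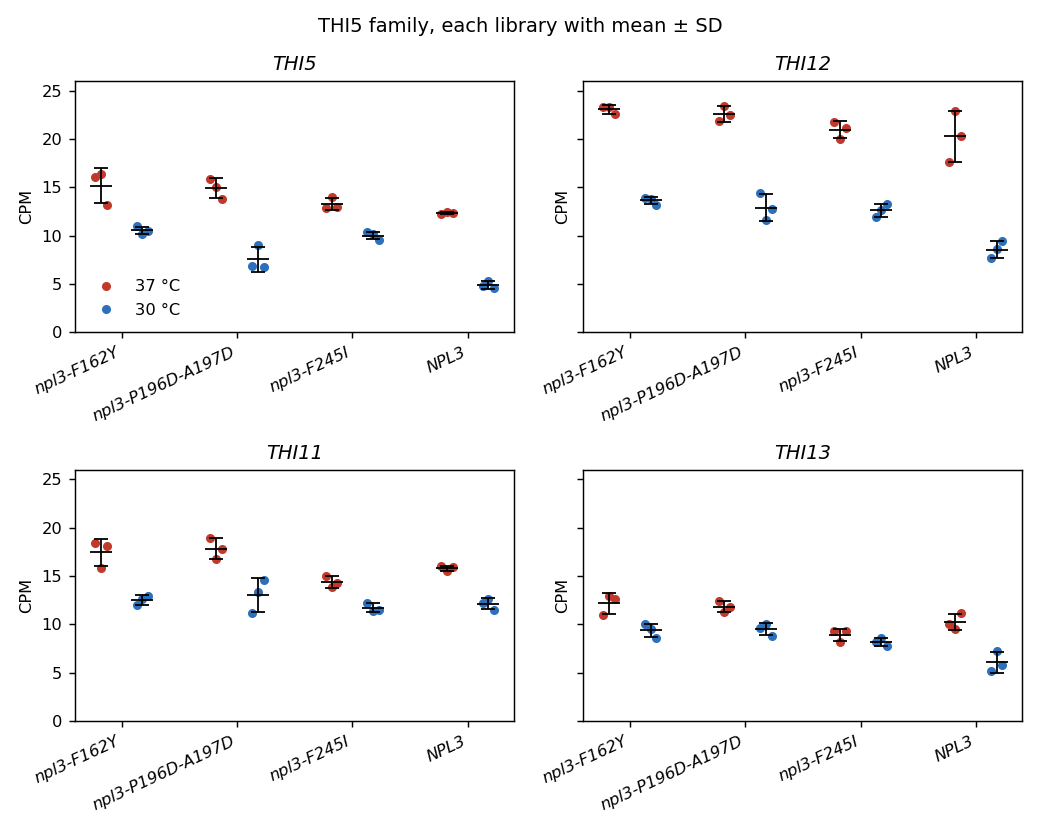
CPM of THI5, THI12, THI11 and THI13, each counted singly, in each of the 24 libraries, by strain and temperature; points are libraries and bars the mean ± SD of 3. The gap between 37 °C and 30 °C is widest in NPL3 for THI5, THI12 and THI13, where the NPL3 points at 30 °C are the lowest of the panel.

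Over all 10 genes, the shift to 37 °C changed 8 in npl3-F162Y (6 higher, 2 lower), 7 in npl3-P196D-A197D (5 higher, 2 lower), 8 in npl3-F245I (4 higher, 4 lower) and 6 in NPL3 (4 higher, 2 lower). The shares of all genes tested that changed were 61.3, 61.9, 68.6 and 67.0%, so these counts were close to the background. The SNO2 call in npl3-F162Y (log2 0.32) was lost without any 1 of 4 libraries, without the other number series (adjusted p = 0.0503), under RLE size factors (0.0566), with DESeq2 (0.0714) and under the replicate block (0.0628). The genes that rose with heat in NPL3 were the 4 of the THI5 family, and those that fell were SNZ1 and SNO1. The SNO1 call in NPL3 was lost in the settings given above. The interaction passed for 4 genes in npl3-F162Y, 3 in npl3-P196D-A197D and 6 in npl3-F245I, all of them lower in the mutant's response, beside 20.5, 10.6 and 28.9% of all genes. These counts include SNZ1 and SNO1, from whose 30 °C values the contrast is not free, and nothing is read from them. THI12 was counted in all 3 mutants.

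Between mutants at 37 °C 2 of 10 genes passed in npl3-P196D-A197D against npl3-F162Y, 6 in npl3-F245I against npl3-F162Y and 5 in npl3-P196D-A197D against npl3-F245I, beside 19.3, 38.2 and 37.7% of all genes. Every gene called against npl3-F162Y was lower, and every gene called between the other mutants was higher in npl3-P196D-A197D. The SNO1 call between npl3-P196D-A197D and npl3-F245I was lost without any 1 of 4 libraries and without the other number series (adjusted p 0.0816 to 0.175), with no filter (0.0501) and with these groups alone (0.0618), all by edgeR. At 30 °C the counts were 3, 3 and 1 in the same order of comparisons, beside 25.2, 33.7 and 28.2%. The 1 gene called between npl3-P196D-A197D and npl3-F245I at 30 °C was THI5, and that difference was not seen in the summed family (log2 0.02, adjusted p = 0.817, edgeR).

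**Figure D4:**
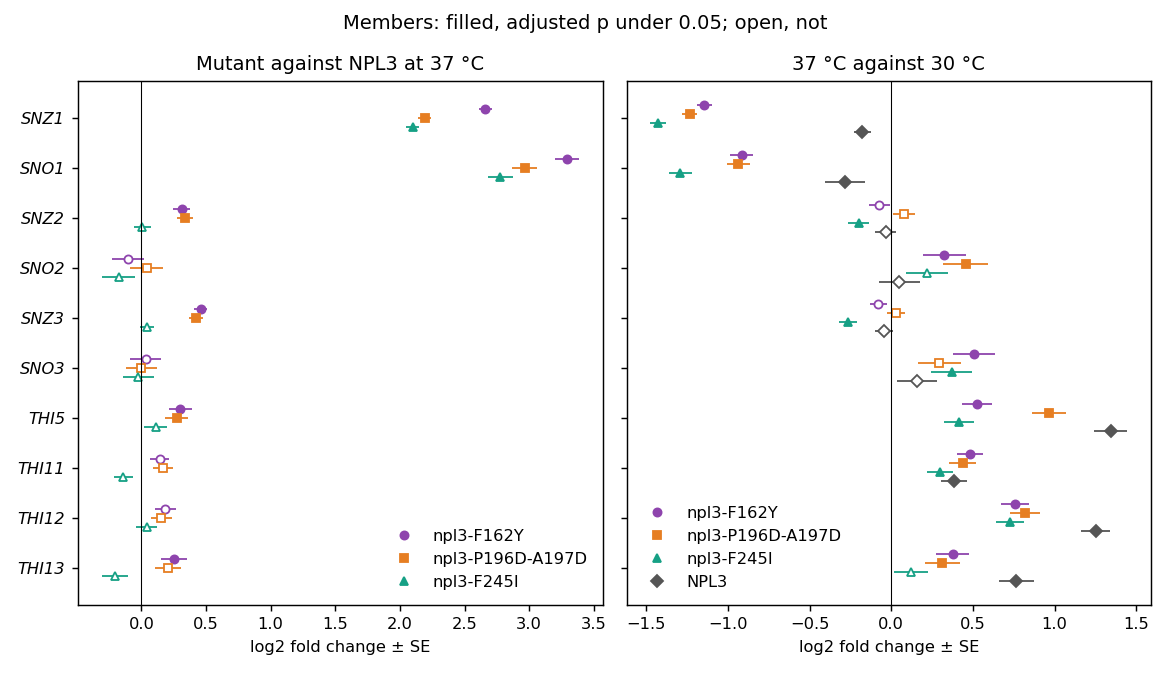
Log2 fold change ± SE of each member at 37 °C, for each mutant against NPL3 (left) and for 37 °C against 30 °C in each strain (right); filled symbols have an edgeR adjusted p under 0.05 and open symbols do not. SNZ1 and SNO1 lie above 2 on the left and are the lowest of the mutants on the right, and NPL3 is the farthest right for THI5, THI12 and THI13.

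Of 13 other genes of vitamin B1, 10 passed at 37 °C in npl3-F162Y (7 higher, 3 lower), 8 in npl3-P196D-A197D (6 higher, 2 lower) and 9 in npl3-F245I (4 higher, 5 lower), beside 58.8, 43.7 and 50.6% of all genes. THI4, which makes the thiazole part of thiamine, averaged 26.9, 28.0 and 17.0 CPM in npl3-F162Y, npl3-P196D-A197D and npl3-F245I, against 14.6 CPM in NPL3, and was higher in all 3 mutants. THI7, the thiamine transporter, was 1.68-fold, 1.37-fold and 1.84-fold higher in the same mutants, and all passed. NRT1, a THI7 paralogue that carries nicotinamide riboside, went the other way in each, with averages of 28.1, 38.7 and 28.0 CPM against 50.6 CPM in NPL3 (adjusted p = 2.31e-12, 1.86e-06 and 2.54e-12, edgeR).

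With the shift, 11 of the 13 changed in npl3-F162Y (9 higher, 2 lower), 12 in npl3-P196D-A197D (9 higher, 3 lower), 10 in npl3-F245I (7 higher, 3 lower) and 11 in NPL3 (9 higher, 2 lower), beside 61.3, 61.9, 68.6 and 67.0% of all genes. THI20, a kinase that acts on the pyrimidine made by the Thi5 family, rose 2.18-fold in npl3-F162Y, 2.11-fold in npl3-P196D-A197D and 1.87-fold in npl3-F245I, against 2.24-fold in NPL3 (115 CPM at 37 °C, 51.3 CPM at 30 °C), and all passed. In npl3-F245I 5 of the 13 had another heat response than in NPL3 (1 higher, 4 lower), beside 28.9% of all genes, and in each of the other mutants the 1 such gene was NRT1.

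Of 5 other vitamin B6 genes, 1 passed at 37 °C in npl3-F162Y, 2 in npl3-P196D-A197D and 3 in npl3-F245I, beside 58.8, 43.7 and 50.6% of all genes, with no change as large as those of SNZ1. The largest was YPR127W, a putative pyridoxal reductase, 1.20-fold higher in npl3-P196D-A197D (adjusted p = 2.04e-05, edgeR). With heat YPR127W rose 1.58-fold, 1.72-fold and 1.34-fold in npl3-F162Y, npl3-P196D-A197D and npl3-F245I, against 1.60-fold in NPL3. The vitamin B6 transporter gene TPN1 fell 1.25-fold, 1.37-fold and 1.42-fold in the mutants in that order, against 1.28-fold in NPL3, and all of these passed.

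Among 4 regulators, THI2, an activator of thiamine genes, was 1.62-fold, 1.42-fold and 1.30-fold higher at 37 °C in npl3-F162Y, npl3-P196D-A197D and npl3-F245I, and all passed. THI3, another regulator of thiamine genes, was 1.17-fold, 1.08-fold and 1.20-fold lower in the same mutants (adjusted p = 5.11e-05, 0.04 and 8.35e-06, edgeR). PDC2, an activator of pyruvate decarboxylase and thiamine genes, had log2 differences of -0.01 in npl3-F162Y, -0.10 in npl3-P196D-A197D and 0.16 in npl3-F245I, of which the last 2 passed in opposite directions. GCN4 mRNA averaged 965, 1148 and 985 CPM in the mutants in that order, against 1154 CPM in NPL3. It was lower in npl3-F162Y and npl3-F245I (adjusted p = 0.000178 and 0.000787, edgeR), and the log2 difference in npl3-P196D-A197D was -0.01. Gcn4 protein is set mainly at translation, which these libraries do not measure.

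**Figure D5:**
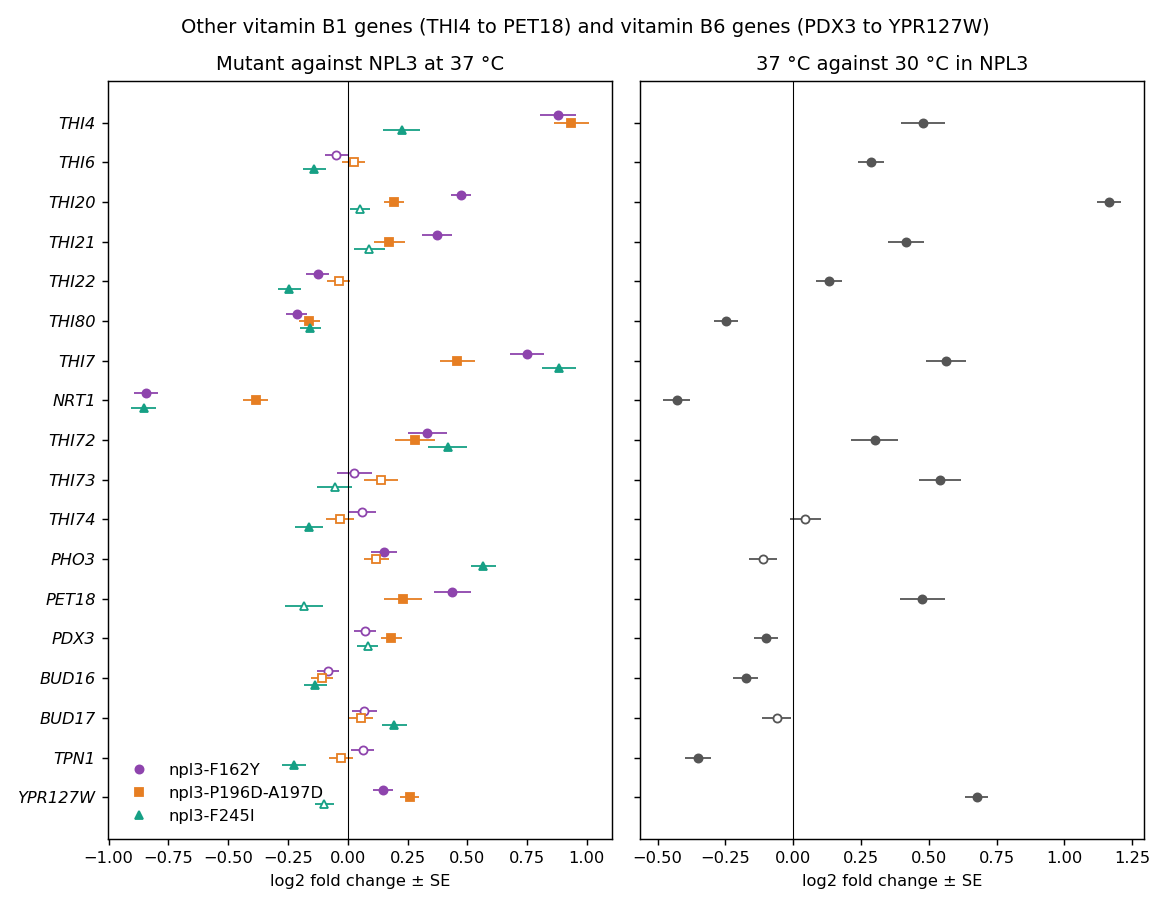
Log2 fold change ± SE of 13 other vitamin B1 genes (THI4 to PET18) and 5 other vitamin B6 genes (PDX3 to YPR127W), for each mutant against NPL3 at 37 °C (left) and for 37 °C against 30 °C in NPL3 (right); filled symbols have an edgeR adjusted p under 0.05. NRT1 is the lowest in every mutant, THI4 and THI7 are among the highest, and THI20 has the widest heat response.

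The genes next to the members did not move as one block. DDI2 and DDI3, near-identical cyanamide hydratase genes, end 78 bases from the ends of SNO2 and SNO3 and face them. They may share reads like the copies above, so the count of each is uncertain, and their sum was not tested. At 37 °C DDI2 was 2.29-fold, 2.20-fold and 2.22-fold higher in npl3-F162Y, npl3-P196D-A197D and npl3-F245I, and DDI3 2.96-fold, 2.02-fold and 2.86-fold, all of which passed at levels under 5 CPM, while the SNO genes beside them did not pass. MTG1, 122 bases beyond SNZ1, had log2 differences of 0.07, 0.04 and -0.06, none of which passed. CTF13, 23 bases beyond SNO1, was 1.17-fold lower in npl3-F162Y and 1.23-fold lower in npl3-P196D-A197D. AAD10, AAD14 and AAD4, related genes of putative aryl-alcohol dehydrogenases, lie beside THI11, THI12 and THI13. AAD4 averaged 70.3, 114 and 34.6 CPM at 37 °C in npl3-F162Y, npl3-P196D-A197D and npl3-F245I, against 62.8 CPM in NPL3, so it was higher in npl3-F162Y and npl3-P196D-A197D and lower in npl3-F245I (adjusted p = 0.00751, 1.53e-12 and 2.39e-12, edgeR). AAD10 was 1.30-fold and AAD14 1.24-fold higher in npl3-F162Y, and 1.43-fold and 1.17-fold in npl3-P196D-A197D, and neither passed in npl3-F245I. HXT15, a hexose transporter gene on the other side of THI13, was called higher in all 3 mutants at levels under 1 CPM.

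Likeness was taken as Pearson's r of log2 CPM with a member over the 24 libraries, among 4989 protein-coding genes with a mean of at least 10 CPM. The 5 genes most like SNZ1 were PHO81 (0.98), CSS1 (0.98), GCV1 (0.98), PCL5 (0.97) and AZR1 (0.96). Of these 5 genes AZR1 had the widest differences from NPL3, with means of 14.3, 8.81 and 13.0 CPM at 37 °C in npl3-F162Y, npl3-P196D-A197D and npl3-F245I against 3.64 CPM in NPL3, and 47.5, 31.1 and 42.0 CPM at 30 °C against 5.43 CPM. The 5 most like THI12 were MOH1 (0.98), PDE1 (0.97), SHH3 (0.97), AMS1 (0.97) and PFK26 (0.97). The libraries share strain and temperature, so these values rank genes and test nothing.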

How the data were processed

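Messenger RNA of 24 yeast libraries was measured by sequencing, in 8 groups of 3 taken from the labels. The authors deposited counts per gene. Per the submitters' processing notes, reads were checked with FastQC, aligned with STAR 2.7.2a to R64 and counted with HTSeq, and per the labels' protocols a stranded mRNA kit was used on total RNA. The strand setting and the handling of reads that match several genes are not given in the sources used here. Of assigned, no-feature and ambiguous reads together, 4.39 to 6.51% per library were in no feature and 0.787 to 1.01% were ambiguous; these 5 summary rows were left out.

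Counts were tested in edgeR 4.0.16 (R 4.3.3, limma 3.58.1): filtering by group, TMM scaling, 8 group means over all 24 libraries, robust quasi-likelihood F-test, Benjamini-Hochberg adjustment over 6518 genes, threshold 0.05, no minimum fold, 19 comparisons. With 16 residual degrees of freedom the common biological coefficient of variation was 5.26%. The procedure was tested on simulated data. Log2 CPM used a prior count of 1. Sequences were aligned with MAFFT 7.526 and read from R64. The members and gene lists were chosen with earlier results of these data known. Genes were named by rule: all members, the listed B1, B6 and regulator genes with values for up to 3 called genes of a list in a comparison, direct neighbours, and the 5 genes most like SNZ1 and THI12; THI80, PDX3 and others of the lists stand in a figure. Replicate numbers were taken as pairing libraries only where every same-numbered pair had residuals correlated above 0.1 across genes, as they did in 1 of 16 comparisons, npl3-F162Y against NPL3 at 37 °C (r = 0.204, 0.544 and 0.288). Alternatives were RLE size factors, no filter, DESeq2 1.42.0, a fit of the groups compared alone, a replicate block, each library left out, the 4 libraries of the other number series left out, and copies summed. Single-library omissions for summed copies were added after seeing the data.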

Additional observations from a re-analysis of the deposited data

Results flagged for a closer look

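The results below stand out because a mutant's response to the shift differed from that of NPL3 by the interaction test (edgeR, adjusted p under 0.05); the values are log2 responses in the mutant minus those in NPL3. The contrast subtracts the 30 °C difference on which SNZ1 and SNO1 were chosen, so their values are a description and support nothing. The other members were taken along with their 30 °C values known, so their tests are not free of that choice either.

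For npl3-F162Y the values were -0.97 for SNZ1, -0.63 for SNO1, -0.82 for THI5, -0.49 for THI12 and 0.35 for NRT1. For npl3-P196D-A197D they were -1.06 for SNZ1, -0.65 for SNO1, -0.43 for THI12 and 0.25 for NRT1. For npl3-F245I they were -1.25 for SNZ1, -1.01 for SNO1, -0.22 for SNZ3, -0.93 for THI5, -0.53 for THI12 and -0.65 for THI13. Outside the members, npl3-F245I had -0.40 for THI4, -0.26 for THI20, 0.20 for NRT1, -0.25 for THI74, -0.34 for PET18, -0.25 for YPR127W, -0.22 for THI3 and -0.20 for GCN4. The SNZ3 call in npl3-F245I was lost without any 1 of 5 libraries and without the other number series (adjusted p 0.0556 to 0.0973, edgeR).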

How the results depend on the processing

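No called value changed direction under RLE size factors, DESeq2, no filter, a fit of the groups compared alone, the replicate block, the omission of any library or the omission of the other number series. Summing near-identical copies, which gives every copy its family's value, turned the THI11 heat response in npl3-F162Y and npl3-P196D-A197D minus that in NPL3 to -0.34 and -0.25, THI11 in npl3-F245I against NPL3 at 30 °C to 0.43, and THI5 in npl3-P196D-A197D against npl3-F245I at 30 °C to 0.0173. With copies summed 6 members passed the npl3-P196D-A197D interaction (3 singly), and 7 passed npl3-F245I against npl3-F162Y at 30 °C (3 singly). The count was 8 for npl3-P196D-A197D against NPL3 at 37 °C (5 singly) and 0 for npl3-P196D-A197D against npl3-F245I at 30 °C (1 singly). In these summed counts the test of a family is counted once for each of its copies. With copies counted singly, 10.6, 33.7, 43.7 and 28.2% of all genes passed in the same order, and nothing is read from the counts. For npl3-P196D-A197D against npl3-F245I at 30 °C the count was 2 with DESeq2 and 3 with the groups compared alone. It was 2 with the replicate block, 2 without the other number series, and 0 to 2 when single libraries were left out. For npl3-F162Y against NPL3 at 37 °C, where the numbers paired libraries, the replicate block left the count of members at 6. All calls of SNZ1 and SNO1 at 37 °C against NPL3 held under each of these settings. At 5 CPM and less, as for SNO1 in NPL3, depth limits what can be seen.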
